A study of Mus musculus with 2 samples.

Results

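The miR-34 and miR-449 family was followed through microRNA-seq libraries of mouse cortex as 6 genes out of the 2202 microRNA genes in the deposited tables: Mir34a, Mir34b, Mir34c, Mir449a, Mir449b and Mir449c. The genes were taken by their GENCODE M21 names, with earlier results of these data known; no threshold on their counts was used. The material was total RNA, with RNA shorter than 30 bases sequenced, from left cerebral cortex, taken from male adults of strain 5xFAD/CAST at 8 to 10 months of age. 5xFAD is a transgenic model of amyloid deposition, in which mutant human genes for the amyloid precursor protein and presenilin are driven in neurons by the Thy1 promoter, and CAST commonly stands for the wild-derived inbred strain CAST/EiJ. Carriage of the transgenes is not stated in the labels, and all libraries form 1 group, so no control group, treatment or age series enters the results. The 2 libraries are labelled as biological replicates 1 and 2, come from separate tissue samples and carry the same donor identifier. Whether they are separate animals is not stated, so an SD with n = 2 is the spread between these samples, which may be technical, and tests of counts between them cover counting error unless the spread of all genes is named.

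MicroRNAs are cut from hairpin precursors and pair with messenger RNAs mainly through their seed, bases 2 to 8 of the mature strand, so members with the same seed can recognise the same targets. Mir34a is a direct transcriptional target of the stress-activated tumour suppressor p53 and is made in many tissues, brain included. Mir34b and Mir34c are made from a common primary transcript, and the Mir449 genes from an intron of Cdc20b; both loci are known for their high levels in multiciliated cells, such as those of the airway and of the ependyma lining the brain ventricles, where the family represses the centriole-capping protein Cp110 and is needed for motile cilia to form.

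The mature sequences show what the members share and are printed because the same seed is carried by genes of very different level. They were taken from RefSeq (build GRCm38.p6), in which 9 mature sequences and 5 of the 6 hairpins were found. Capitals mark the seed, and the sequences run 5′ to 3′.
mmu-miR-34a-5p: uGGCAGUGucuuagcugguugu
mmu-miR-34b-5p: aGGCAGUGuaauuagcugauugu
mmu-miR-449a-5p: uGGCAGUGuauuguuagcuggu
mmu-miR-449c-5p: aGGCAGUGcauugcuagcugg
mmu-miR-34b-3p: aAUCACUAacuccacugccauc
mmu-miR-34c-3p: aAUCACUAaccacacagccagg
mmu-miR-34a-3p: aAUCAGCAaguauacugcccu
mmu-miR-449a-3p: cAGCUAACaugcgacugcucuc
mmu-miR-449c-3p: cAGUUGCUagcugcacuacccu
The members mmu-miR-34c-5p and Mir449b have no entry in the RefSeq table used and are named only, so their seeds were not compared. The 4 printed 5p strands have the seed GGCAGUG, and no other entry among the 1679 mature mouse sequences in the RefSeq table has it. The 3p strands of Mir34b and Mir34c share the seed AUCACUA, which also occurs in no other entry, whereas each remaining 3p strand has a seed of its own.

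Beyond the seed the 5p strands stay alike in part. Counted from the 5′ end, mmu-miR-449a-5p and mmu-miR-449c-5p are identical at 18 positions, and mmu-miR-34a-5p and mmu-miR-34b-5p are identical in 19 of 23 columns when aligned with gaps. The longest unbroken run of identical bases between any pair of them is 9 bases, found between mmu-miR-34a-5p and mmu-miR-449a-5p and between mmu-miR-34b-5p and mmu-miR-449a-5p. The longest stretch that a whole precursor shares with any other annotated microRNA precursor, on either strand, is 14 bases (Mir449a with Mir679), and between Mir34b and Mir34c it is 11 bases. No run of 20 bases in any of the 6 members recurs in another annotated microRNA precursor, whereas 1133 of the 2202 genes (51.5%) have such a run. Among the 417 genes with at least 10 counts in each library, 104 have one. The rest of the genome was not searched.

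Counts were given per precursor, so reads from the 2 arms are added together. The precursors of Mir34a and Mir34b are shown with both mature strands in capitals, since any read from either capital stretch counts toward the gene.
Mir34a: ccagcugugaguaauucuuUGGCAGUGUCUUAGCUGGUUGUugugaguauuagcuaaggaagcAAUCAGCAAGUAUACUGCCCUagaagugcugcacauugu
Mir34b: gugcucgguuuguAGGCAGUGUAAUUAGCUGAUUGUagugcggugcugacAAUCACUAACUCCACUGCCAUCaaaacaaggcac

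The 6 genes lie at 3 loci (mm10, counted from 1). Mir34a (ENSMUSG00000065493.1) occupies bases 150068454 to 150068555 of the plus strand of chromosome 4, and its last 17 bases overlap an exon of the unclassified transcript Gm37795 on the same strand. Mir34b (ENSMUSG00000065492.1; 51103562 to 51103645) and Mir34c (ENSMUSG00000065587.1; 51103034 to 51103110) are on the minus strand of chromosome 9, 451 bases apart, inside an intron of Btg4, which is transcribed from the opposite strand. Mir449c (ENSMUSG00000076146.1; 113035983 to 113036091), Mir449b (ENSMUSG00000078027.1; 113037419 to 113037498) and Mir449a (ENSMUSG00000065575.1; 113037534 to 113037624) are on the plus strand of chromosome 13 in an intron of Cdc20b, a relative of the cell-cycle regulator Cdc20, on the same strand. Mir449b and Mir449a are 35 bases apart, and 1327 bases separate Mir449c from Mir449b.

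The libraries held 16403925 and 16991914 reads in replicates 1 and 2, of which 4929428 and 4441328 were sense reads of microRNA genes. Levels are those sense counts scaled to 1000000 gene counts (CPM), so 1 read stands for 0.203 CPM in replicate 1 and 0.225 CPM in replicate 2. A gene with at least 10 counts in each library is called detected, which holds for 417 genes. Of 12 genes listed for cortical neurons, 10 were detected, beside 417 of all 2202 genes. The list was chosen with earlier results of these data known, so this is no independent check of the tissue label. Its summed level was 54945 and 65872 CPM, of which Mir132 gave 19682 and 44698 CPM. The loci of Mir124, the best known neuronal microRNA, had at most 21 reads. Reads that mapped to several places (38.5% and 33.0% of all reads) were left out of gene counts. Low counts at a microRNA with several loci therefore do not show a low level.

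Of the family, 4 genes were detected, and Mir34a led the family in both libraries. Together the 6 genes had 7836 reads in replicate 1 (0.159% of gene counts) and 15275 in replicate 2 (0.344%). Mir34a made up 80.6% of the family's reads in replicate 1 (exact Clopper-Pearson 95% interval 79.7 to 81.4%) and 77.4% in replicate 2 (76.8 to 78.1%), Mir34c 15.2% and 20.7%, Mir34b 2.27% and 0.681% and the Mir449 cluster 1.93% and 1.22%. The intervals here and below cover counting error only, since they are computed from the read counts of each library. No molecular identifiers were used, so reads copied from the same molecule count separately and the intervals may be too narrow.

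Mir34a, the p53-linked member, had 6313 reads in replicate 1 and 11827 in replicate 2, that is 1281 CPM (exact Poisson 95% interval 1249 to 1313) and 2663 CPM (2615 to 2711). Its mean was 1972 ± 977 CPM (SD, n = 2), which placed it at rank 66 of the 2202 genes and above 84.2% of the detected ones. Its 2 libraries lie far apart for counts of this size: the interval of replicate 2 begins above the end of that of replicate 1.

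Mir34c, the leading gene of the ciliated-cell loci, had 1194 and 3157 reads, or 242 CPM (229 to 256) and 711 CPM (686 to 736) in replicates 1 and 2. The mean was 477 ± 331 CPM (SD, n = 2) at rank 131, and replicate 2 was again the higher library. Mir34b, its neighbour on the same primary transcript, was far lower, with 178 and 104 reads and 36.1 CPM (31.0 to 41.8) and 23.4 CPM (19.1 to 28.4). Here replicate 1 was the higher library, and the mean was 29.8 ± 8.98 CPM (SD, n = 2).

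Within the Mir449 cluster almost all reads came from 1 gene. Mir449a had 148 and 184 reads, or 30.0 CPM (25.4 to 35.3) and 41.4 CPM (35.7 to 47.9), with a mean of 35.7 ± 8.06 CPM (SD, n = 2) at rank 256. Mir449c had 3 reads in each library, 0.609 and 0.675 CPM, which is the level taken as the limit for a gene without reads. Mir449b had no read in either library, which by the limit of 3 counts allows a level as high as those of Mir449c, 0.609 and 0.675 CPM; the exact two-sided Poisson 95% interval used for the other members ends at 0.748 and 0.831 CPM. Of the 2202 genes, 1436 had no read in either library, so an empty locus is the common case in these tables. The ratio of Mir449a to Mir449c was 49.3 in replicate 1 (exact 95% interval 16.6 to 242) and 61.3 in replicate 2 (20.7 to 300.1), although the genes lie in the same intron.

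**Figure D1:**
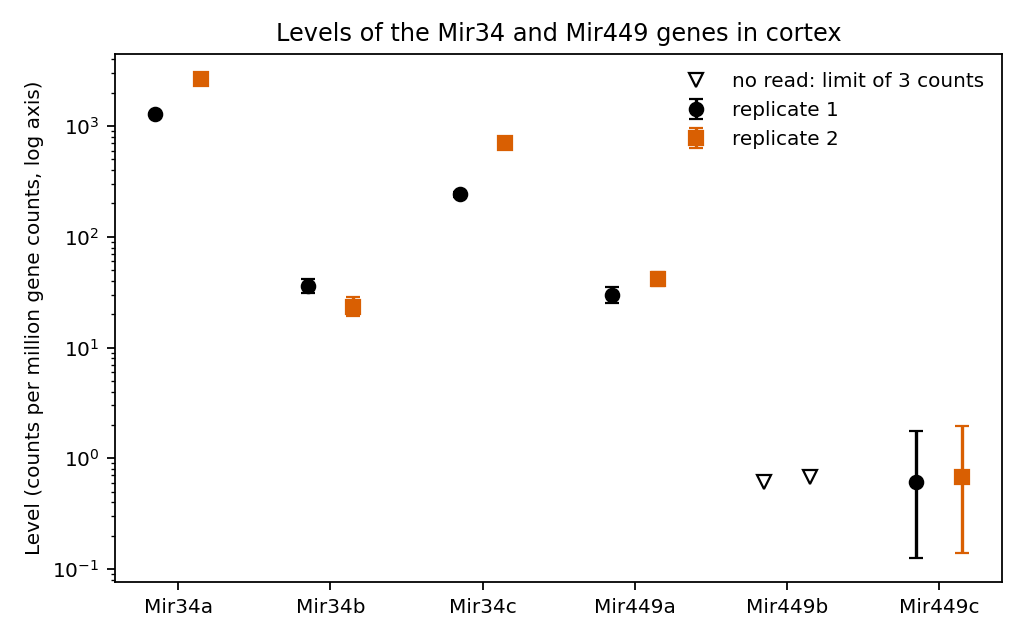
Level of each of the 6 genes in CPM on a log axis, with circles for replicate 1, squares for replicate 2 and bars for the exact Poisson 95% interval; open triangles mark the limit of 3 counts for a gene without reads. Mir34a (1281 and 2663 CPM) and Mir34c (242 and 711 CPM) stand above Mir34b and Mir449a, which lie between 23.4 and 41.4 CPM, and Mir449b had no read.

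The order of the levels was the same in both libraries for the top of the family and not for its middle. Mir34a was 5.29-fold above Mir34c in replicate 1 (exact 95% interval 4.97 to 5.63) and 3.75-fold in replicate 2 (3.60 to 3.90), a mean log2 ratio of 2.15 ± 0.35 (SD, n = 2). Mir34c in turn was 8.07-fold (exact 95% interval 6.796 to 9.64) and 17.2-fold (14.8 to 20.0) above Mir449a, a mean log2 ratio of 3.56 ± 0.77. Both gaps are wider than the spread between the libraries.

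Mir34b and Mir449a could not be ordered. Mir34b stood at 1.20 times Mir449a in replicate 1 (0.962 to 1.51) and at 0.565 times in replicate 2 (0.440 to 0.723), so that the mean log2 ratio of -0.28 is smaller than its SD of 0.77. Divided by the annotated length of each precursor, the counts kept the same order within each library. Mir34a had 61.9 and 116 counts per base and Mir34c 15.5 and 41.0. Mir34b had 2.12 and 1.24 counts per base against 1.63 and 2.02 for Mir449a.

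The p53-linked Mir34a was set against the sum of the 5 ciliated-cell loci, a ratio that needs no scaling because both counts come from the same library. Both names are labels and do not exclude a link of Mir34b and Mir34c to p53. The ratio therefore does not set p53-linked genes against genes without such a link. It exceeded their sum 4.15-fold in replicate 1 (6313 against 1523 reads) and 3.43-fold in replicate 2 (11827 against 3448 reads), a mean log2 ratio of 1.91 ± 0.19 (SD, n = 2). The ratio was lower in replicate 2 by a log2 change of -0.27 (95% interval -0.37 to -0.17, p = 3.5e-08, Fisher's exact test, two-sided), a test that compares these 2 libraries on counting error alone. Against Mir34b and Mir34c only, the ratios were 4.60 and 3.63. Mir34c supplied most of the ciliated-cell sum in both libraries. Since cortex is bulk tissue, fewer cells of a type and less RNA per cell cannot be told apart in any of these levels.

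Between the libraries the members did not move as a block. Mir34c was higher in replicate 2 by a log2 difference of 1.55 (exact 95% interval 1.46 to 1.65), Mir34a by 1.06 (1.01 to 1.10) and Mir449a by 0.46 (0.14 to 0.79), while Mir34b was lower, at -0.62 (-0.99 to -0.27). In the exact two-sided binomial test of each gene adjusted by Benjamini-Hochberg across the 417 detected genes, all 4 passed a threshold of 0.05, with adjusted p values of 1.2e-247 for Mir34c, 0.00085 for Mir34b, 0.0067 for Mir449a and at most 1e-300 for Mir34a. That test called 59.2% of all detected genes (24.7% higher and 34.5% lower in replicate 2), so being called is common among microRNAs of this depth. Mir449b and Mir449c were too low to be tested.

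The differences were also set against the spread of all genes. The biological coefficient of variation of the 417 genes, fitted with edgeR, was 0.340, and edgeR's exact test at this spread called 1.44% of them (6 genes; 0.48% higher and 0.959% lower in replicate 2), each differing by at least 2.60 on the log2 scale, and none of the 4 members. The adjusted p in that test was 0.62 for Mir34c and 1 for each of the other 3, and at an unadjusted p under 0.05 there were 23 genes, among them Mir34c (unadjusted exact p = 0.031). That spread was fitted on the same 2 libraries, each side of the test is 1 library, and no difference smaller than 2.60 was called, so differences of the size seen in the members could hardly pass. A p that misses the threshold does not show that the libraries had equal levels. By size, the difference of Mir34c was exceeded or equalled by 23 of the 417 genes, itself included, and that of Mir34a by 46. The median gene was 1.29-fold apart, against 2.93-fold for Mir34c, 2.08-fold for Mir34a, 1.54-fold for Mir34b and 1.38-fold for Mir449a.

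**Figure D2:**
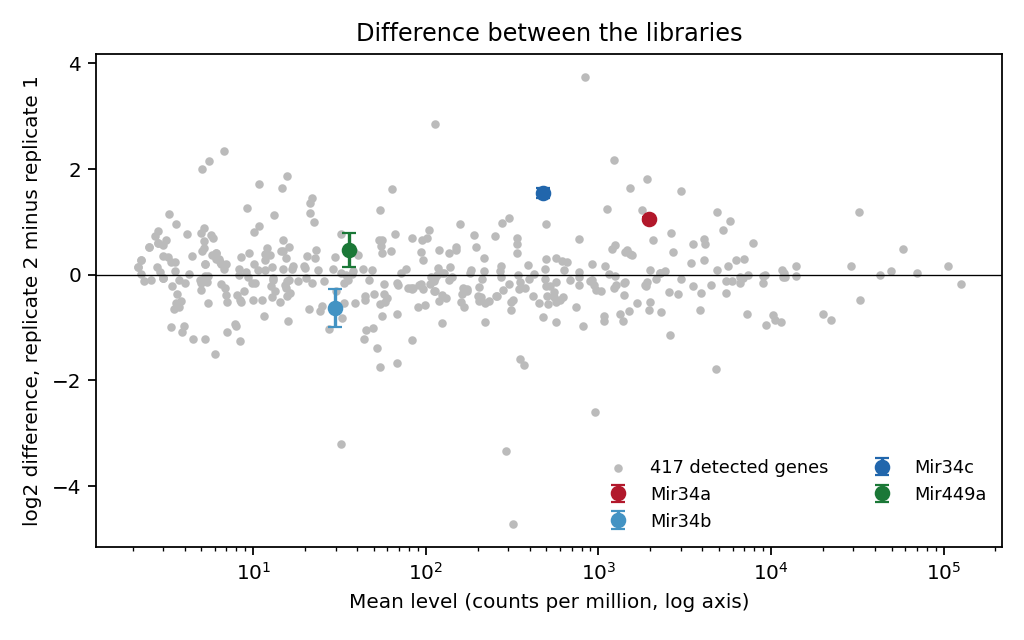
Difference between the libraries (log2, replicate 2 minus replicate 1) against mean level (CPM, log axis) for the 417 detected genes, in grey, with the 4 detected members coloured and their exact 95% intervals from counting error. Mir34c (1.55) and Mir34a (1.06) lie toward the upper edge of the cloud at their level, Mir449a (0.46) inside it, and Mir34b (-0.62) below the zero line.

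The pair from 1 primary transcript diverged most. Mir34c exceeded Mir34b 6.71-fold in replicate 1 (1194 against 178 reads, exact 95% interval 5.73 to 7.90) and 30.4-fold in replicate 2 (3157 against 104 reads, 25.0 to 37.3). Expressed as Mir34b to Mir34c, the ratio changed by a factor of 4.53, a log2 change of -2.18 (-2.55 to -1.81, adjusted p = 1.5e-32, Fisher's exact test, two-sided, Benjamini-Hochberg over the 6 pairs of detected members). All 6 pairs passed the threshold of 0.05 in this test, which holds counting error only. The smallest change was that of Mir34a to Mir34c, by a factor of 1.41 (log2 change -0.50, -0.60 to -0.39, adjusted exact p = 1.7e-20). The ratio of Mir34a to Mir34b changed by a factor of 3.21, Mir34b to Mir449a and Mir34c to Mir449a by 2.13 each, and Mir34a to Mir449a by 1.51.

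This divergence was set beside that of other neighbours, a comparison chosen after the values were seen. Among 107 pairs of adjacent detected microRNA genes on the same strand, not overlapping and at most 10 kb apart, the median pair differed by 0.41 on the log2 scale in its difference between the libraries. Mir34b and Mir34c, at 2.18, were in rank 2 of the 107, after Mir296 and Mir298. Over the 75 pairs with at least 100 counts in each gene and library they were also in rank 2. Members of a pair moved in opposite directions in 42.1% of the 107 pairs. This is a description of these libraries, with no test attached.

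**Figure D3:**
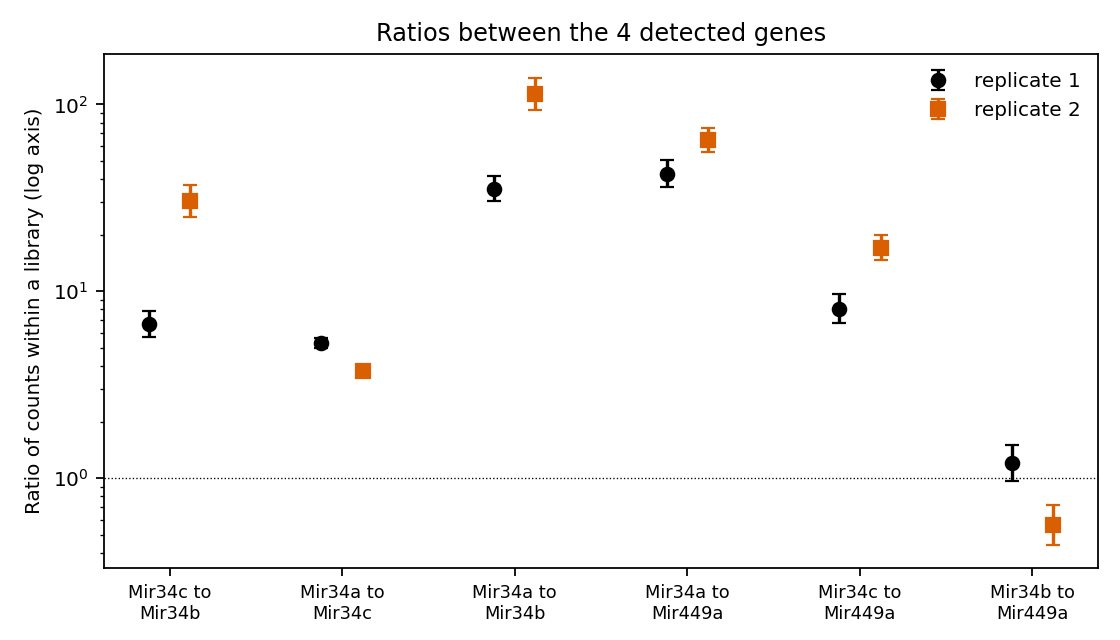
Ratio of counts between the 4 detected members within each library on a log axis, with circles for replicate 1, squares for replicate 2 and bars for exact 95% intervals from counting error; the dotted line marks equal counts. Mir34c to Mir34b went from 6.71 in replicate 1 to 30.4 in replicate 2, the widest change, and Mir34b to Mir449a lies on both sides of the line.

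Genes of like level and difference were found for each detected member by distance in log2(CPM + 1) over the 2 libraries. Nearest to Mir34a were Mir219a-2, an oligodendrocyte microRNA (1064 and 2501 CPM, distance 0.28), Mir760 (0.34) and Mir1249 (0.59). Nearest to Mir34c were Mir673 (337 and 653 CPM, distance 0.49), Mir877 (0.78) and Mir125b-2 (0.83). Mir34b was closest to Mir448, which lies in the choroid plexus gene Htr2c (41.8 and 23.6 CPM, distance 0.21), then to Mir3086 (0.23) and Mir9-1 (0.25). Mir449a was closest to Mir6516 (0.15), the muscle microRNA Mir206 (35.5 and 45.9 CPM, distance 0.28) and Mir3093 (0.30). With only 2 libraries, likeness means a similar level and a similar gap and no more.

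Other microRNAs linked to p53 differed in both directions. Of 10 genes on that list, 9 were annotated and 7 detected; in the exact binomial test with Benjamini-Hochberg adjustment 4 were higher in replicate 2, 2 were lower and 1 did not pass, beside 24.7% higher and 34.5% lower over all detected genes, with a median log2 difference of 0.16 against -0.05 over all detected genes. Mir107, whose host gene is a pantothenate kinase, had the mean level closest to that of Mir34a, at 850 and 2971 CPM (log2 difference 1.81). The others higher in replicate 2 were Mir15a (602 and 711 CPM, 0.24), Mir145a (259 and 288 CPM, 0.16) and Mir194-2 (11.6 and 18.2 CPM, 0.66). Lower were Mir16-1, which is clustered with Mir15a (741 and 400 CPM, -0.89), and Mir143 (7028 and 6711 CPM, -0.07). Mir192 was at 12.2 and 13.5 CPM (adjusted p = 0.69 in the exact binomial test), Mir215 had 3 and 2 reads and Mir194-1 had none.

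On the list named for choroid plexus and ependyma, outside the family, the genes called differed in the direction opposite to Mir34c. Ependyma was not marked apart from choroid plexus, so the list says nothing about ependymal cells alone. Of 8 listed genes, 7 were annotated and 6 detected, of which 4 were lower in replicate 2, none was higher and 2 did not pass in the exact binomial test, which called 59.2% of all detected genes (34.5% lower). The share called is thus near that of all genes. The summed level of the list was 1843 CPM in replicate 1 and 871 CPM in replicate 2, and the median log2 difference of its detected genes was -0.67. Mir204, of the choroid plexus and retinal pigment epithelium, was at 1084 and 553 CPM (log2 difference -0.97). Mir1298 was at 566 and 173 CPM (-1.71), Mir448 at 41.8 and 23.6 CPM (-0.82) and Mir1264 at 68.2 and 47.7 CPM (-0.51). Mir211 (60.9 and 53.8 CPM) and Mir764 (20.7 and 19.8 CPM) did not pass, and Mir1912 had 8 and 4 reads. Mir34b differed in the direction of this list, and Mir34c and Mir449a in the opposite one. That direction is not particular to this list. The median log2 difference was also negative for epithelia (-0.65), cortical neurons (-0.45) and red blood cells (-3.20), and it was positive for the p53-linked list (0.16). The part of the marked cells in the members' differences was not tested.

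The remaining marker lists are read against the same shares over all detected genes, 59.2% called, 24.7% higher and 34.5% lower. Of 8 epithelial genes 7 were detected, 5 lower and 1 higher in replicate 2, with a summed level of 471 and 354 CPM. They were led by Mir429 (109 and 105 CPM), Mir200b (116 and 49.5 CPM) and Mir183 (92.1 and 77.7 CPM), with Mir200c (43.4 and 68.4 CPM) the one that was higher; Mir182, Mir200a and Mir141 were at 51.8, 21.1 and 7.02 CPM on average, and the undetected Mir96 had 3 and 15 reads. Of the 10 detected neuronal genes 7 were lower and Mir132 was higher, with a median log2 difference of -0.45. Mir132 was at 19682 and 44698 CPM; the genes that were lower were Mir128-1, Mir128-2, Mir137, Mir138-1, Mir138-2, Mir9-1 and Mir9-3, while Mir9-2 (12 and 16 reads) and Mir124a-1 (21 and 12 reads) did not pass. All 3 red blood cell genes were called: Mir451a (529 and 52.2 CPM) and Mir144 (57.8 and 6.30 CPM) were lower in replicate 2, also at the all-gene spread, and Mir486 (74 and 133 reads) was higher. The part of blood, epithelium or neurons in the members' differences was not tested.

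**Figure D4:**
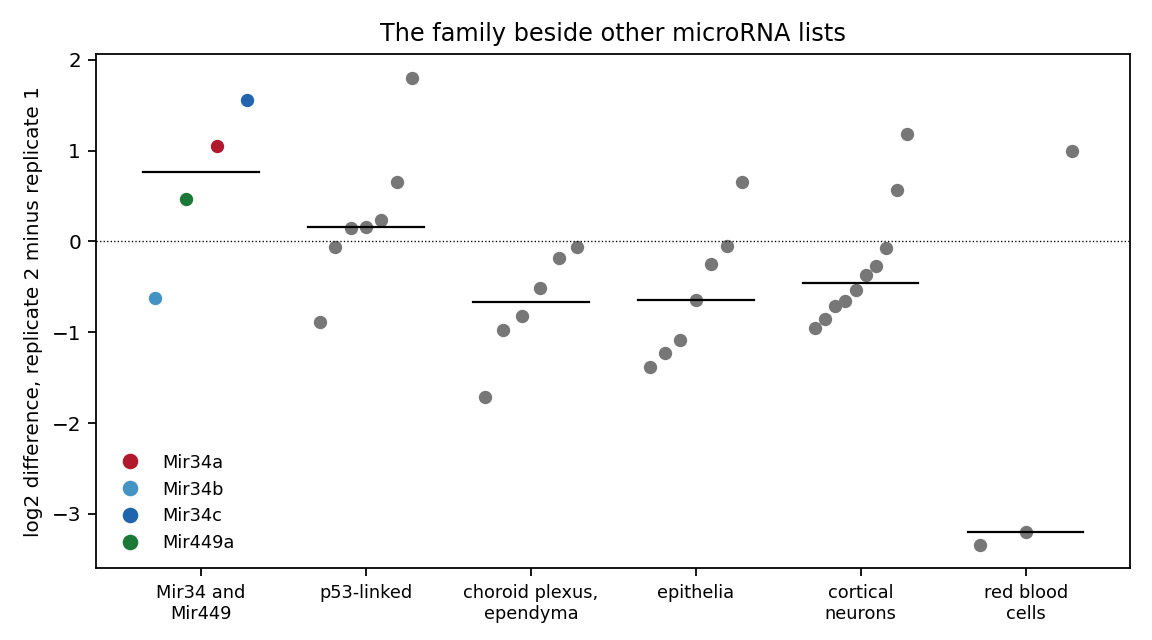
Difference between the libraries (log2, replicate 2 minus replicate 1) for each detected gene of the family, in colour, and of 5 other lists, in grey, with a bar at each list's median. The family spans -0.62 to 1.55, all 6 detected genes for choroid plexus and ependyma lie below the dotted zero line, and Mir451a and Mir144 lie lowest.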

How the data were processed

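The authors deposited raw read counts for 2202 microRNA genes per library (sense, opposite strand and without regard to strand), counted against mm10 with GENCODE M21 per the deposited notes; the aligner and the counter were not given in the sources used here. Unassigned reads, 69.9% and 73.9% of all reads in replicates 1 and 2 (38.5% and 33.0% mapped to several places), stayed out of totals and tests. Symbols and coordinates came from GENCODE M21 (all identifiers matched) and sequences from RefSeq (GRCm38.p6).

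Sense counts were scaled to CPM. Detected genes (at least 10 counts in each library) were compared between libraries with an exact binomial test and with edgeR 4.0.16 (R 4.3.3) exact tests at the common dispersion of an intercept-only fit; with 1 group no contrast between conditions exists. P values below 1e-300 were written as that. Ratios were compared with Fisher's exact test. Scripts were tested on simulated data. Alternatives were TMM and DESeq2 1.42.0 scaling, filter, strand, dispersion, denominator, length and each library left out.

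Members and lists (p53-linked, choroid plexus and ependyma, epithelia, cortical neurons, red blood cells) were chosen with earlier results of these data known. All members, the list genes detected and the 3 genes nearest each detected member are named; Mir215, Mir194-1, Mir1912, Mir96, Mir296, Mir298 and Mir679 were named after their values were seen.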

Additional observations from a re-analysis of the deposited data

Results flagged for a closer look

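Mir34b was the one family member with reads on the strand opposite to its gene. It had 8 such reads in replicate 1 and 3 in replicate 2, that is 4.30% and 2.80% of the reads on both strands there. The value in replicate 1 is above the limit of 3 counts, and that in replicate 2 is not. Btg4 is annotated on that strand, and no microRNA gene is. Of the 390 detected genes with no microRNA gene opposite, 8 had more than 3 opposite reads in replicate 1 and 7 in replicate 2.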

How the results depend on the processing

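The direction of the 4 tested members and their side of the threshold in the exact binomial test held under TMM factors, DESeq2 size factors and counts without regard to strand. At the all-gene spread no member was called under these or with an abundance-trended dispersion, an alternative chosen after seeing the data; for Mir34c the adjusted p in edgeR's exact test was 0.91 with the last and 0.56 to 0.62 otherwise. Since with the common dispersion that test called no difference as small as those of the members, this says nothing about stability. The numbers of genes called stayed between 226 and 275 in the binomial test and between 4 and 8 at the all-gene spread. Without the 10 most abundant genes in the total, levels were higher throughout, at 4631 CPM for Mir34a, 1124 for Mir34c, 68.8 for Mir34b, 83.5 for Mir449a and 1.50 for Mir449c, since the denominator is smaller. In counts without regard to strand every member with reads was also higher, since overlapping genes leave the total. The levels were 2124 CPM for Mir34a, 513 for Mir34c, 33.3 for Mir34b, 38.5 for Mir449a and 0.691 for Mir449c. Only Mir449c, with 3 reads in each library, moved by more than its SD between the libraries. Per annotated base, the log2 ratio of Mir34a to the 5 other loci was 1.54 in place of 1.91, since its precursor is longer than that of Mir34c. Leaving out a library gave 1281 to 2663 CPM for Mir34a, 242 to 711 for Mir34c, 23.4 to 36.1 for Mir34b, 30.0 to 41.4 for Mir449a, 0.609 to 0.675 for Mir449c and 1.78 to 2.05 for that log2 ratio. No paired analysis was possible because there is 1 group. Counting error limits Mir449b and Mir449c, and 2 libraries limit every statement on spread.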
